A study of Saccharomyces cerevisiae with 21 samples.

Results

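The regions described here are the DNA within 10 kb on either side of 7 replication origins of budding yeast, grouped in this work as early origins. The origins ARS603, ARS605, ARS606 and ARS607 lie on chromosome VI at 68.8, 136.0, 167.7 and 199.4 kb. ARS1, which lies beside the TRP1 gene, is at 462.5 kb of chromosome IV, and ARS508 and ARS511 are at 94.0 and 173.8 kb of chromosome V, all on the sacCer2 build. Every deposited value within 10 kb of one of these points was taken and merged by position and strand, which gave 78385 strand-specific positions with a value in at least 1 library, of 6492015 in the nuclear genome. Time of firing was not measured in the files used here, so the name early was not checked against them.

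Ribose-seq locates ribonucleotides embedded in genomic DNA, by capturing DNA ends at a ribonucleotide and recording its position and strand. The libraries came from haploid BY4742 cells grown to stationary phase, with mutations introduced in that same strain. They comprised 3 rnh201-null libraries, 3 rnh201-G42S libraries, 5 rnh203-K46W libraries and 6 wild-type (WT) libraries, and 4 whole-genome sequencing samples have no column of their own in the table. The labels call the G42S and K46W changes orthologous to mutations found in Aicardi-Goutières syndrome. One label field writes K46W under rnh201, but titles and design name rnh203, and that gene is used here. The labels state neither how many clones were used nor whether libraries came from separate cultures, so a p-value measures the spread between these libraries, which may be technical.

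Ribonuclease H2 (RNase H2) cuts DNA at embedded ribonucleotides and starts their removal. Rnh201 is its catalytic subunit and Rnh203 an accessory subunit. Replication forks leave an origin in both directions. DNA polymerase epsilon makes most of the leading strand, DNA polymerases alpha and delta make the lagging strand, and each inserts some ribonucleotides. The strand that is leading therefore switches from one side of an origin to the other, and unequal ribonucleotide content of leading and lagging strands would appear as a strand balance of opposite sign on the 2 sides.

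The strand names depend only on geometry. The outward strand has its 5′ to 3′ direction pointing away from the origin, which is the minus strand on the left and the plus strand on the right. The origin-facing strand is its complement. If the strand column gives the strand that carries the ribonucleotide, the outward strand is the newly made leading strand; if it gives the complementary strand, the origin-facing one is. The labels do not settle which, so the results are given as outward and origin-facing, and no polymerase is assigned to either.

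Depth set what could be compared. The deposited value is an enrichment factor, a ratio in which a read counts for more where the DNA was sequenced less deeply, and read numbers were recovered from its steps. Recovered nuclear reads were 1436, 2143310 and 1975340 in the rnh201-null libraries, 978343, 1453664 and 4112656 in the rnh201-G42S libraries, 78847, 7290, 250307, 1867051 and 576059 in the rnh203-K46W libraries, and 912 to 38657 (median 7974.5) in the 6 WT libraries. A stretch of 917 bases of chromosome XIV, the chromosome of RNH201, held no value in any of the 3 rnh201-null libraries. In another genotype 478 coordinates there held a value. Libraries of a genotype share its DNA depth, so this does not check the label of each library. The shallow WT replicates 1, 2 and 5 and rnh203-K46W replicate 2 also had 0 values there. No library was without a position beside the origins, but rnh201-null replicate 1 had 35, rnh203-K46W replicate 2 had 79, and WT replicates 1 and 2 had 10 and 7. The 8 libraries with at least 100000 nuclear reads, called deep below, were rnh201-null replicates 2 and 3, the 3 rnh201-G42S libraries and rnh203-K46W replicates 3, 4 and 5, so no WT library was deep. Libraries were also divided into 2 sets by their mitochondrial profiles, A with 10 libraries and B with 7. By the numbers in their titles they fell into series 100, 200 and 300. All rnh203-K46W libraries were in series 300 and no WT library was.

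In both rnh201 mutants more of the signal lay on the outward strand than on the origin-facing strand, whereas in rnh203-K46W the strands were nearly even. The outward strand held 68.8%, 61.1% and 53.9% of the summed enrichment factor in the rnh201-null libraries. In the rnh201-G42S libraries it held 61.6%, 56.3% and 57.4%. In the rnh203-K46W libraries it held 46.5%, 56.0%, 51.8%, 50.8% and 49.5%. The 6 WT libraries spread from 44.4% to 73.7%, with a median of 51.9%. Every rnh201-null and rnh201-G42S library was above an even split, all 5 rnh203-K46W libraries were below all 3 rnh201-G42S libraries, and the WT values overlapped every mutant group.

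Counting each position once, whatever its value, gave smaller shares in all 3 rnh201-null and all 3 rnh201-G42S libraries, and shares on either side of those from the summed signal in rnh203-K46W and WT. Of 20982 positions in rnh201-null replicate 2, 58.0% were on the outward strand (exact binomial 95% interval 57.4% to 58.7%), and of 16112 in replicate 3, 52.2% were (51.5% to 53.0%). The rnh201-G42S libraries had 57.4% (56.3% to 58.4%), 53.3% (52.4% to 54.3%) and 54.9% (54.4% to 55.4%). Among the rnh203-K46W libraries the deepest, replicate 4, had 51.0% (50.1% to 51.8%), and replicate 5 had 51.9% (50.4% to 53.3%), both close to an even split. The deepest WT library, replicate 6, had 48.6% of 473 positions on the outward strand (44.0% to 53.2%). These intervals cover the counting of positions only, not the spread between libraries of a genotype. Reads without molecular identifiers are not independent molecules, which bears on read numbers rather than on positions counted once.

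**Figure D1:**
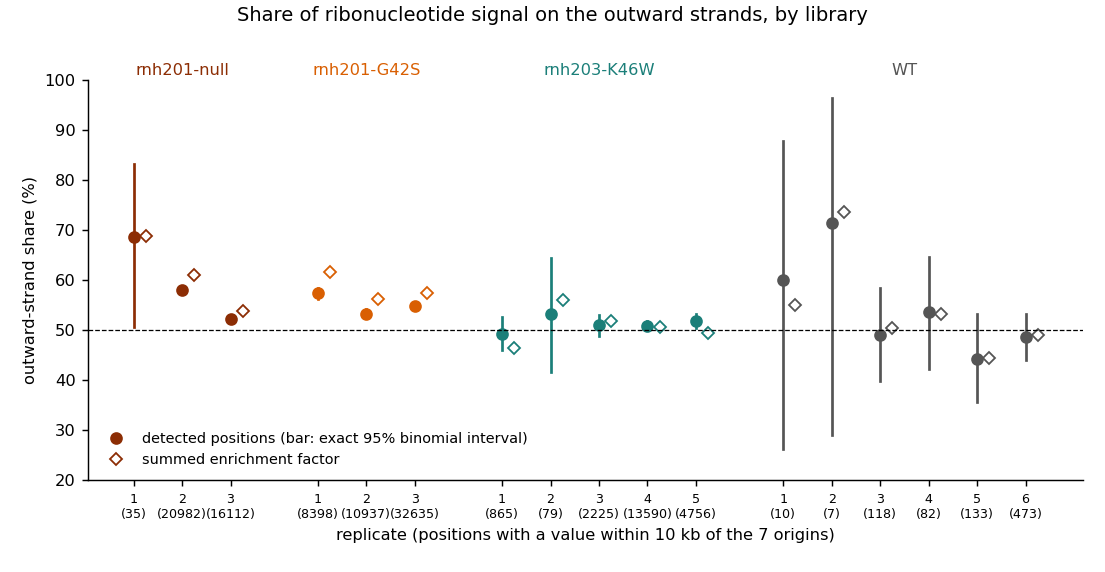
Outward-strand share (%) within 10 kb of the 7 origins in each library, by genotype. Filled circles count each detected position once, with exact 95% binomial intervals as bars; open diamonds use the summed enrichment factor; the dashed line is an even split. The rnh201-null and rnh201-G42S libraries lie above the line by both measures, and the bars of the WT libraries are wide.

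The genotypes were compared over libraries by two-sided exact permutation tests of the difference of means, with Benjamini-Hochberg adjustment over 12 tests. The outward share averaged 50.9 ± 3.44% in rnh203-K46W (SD, n = 5) and 58.4 ± 2.78% in rnh201-G42S (SD, n = 3), a difference of -7.50 percentage points. Its exact p was 0.0357, the smallest that 5 against 3 libraries allow, and the adjusted p was 0.214. The difference was -8.40 within set A, -5.62 within set B and -6.49 within series 300. In set B and in series 300 rnh201-G42S has 1 library each. Against rnh201-null, which averaged 61.3 ± 7.42% (SD, n = 3), rnh203-K46W was lower by a difference of -10.4 points (exact p = 0.0714, adjusted 0.214), and 4 of its 5 libraries lay below all 3 rnh201-null libraries. Without rnh201-null replicate 1, the library with 35 positions, that difference was -6.61 points (exact p = 0.19). Within set A, which includes rnh201-null replicate 1, the difference was -13.9. Within set B it was -3.29 and within series 300 -3.03, both resting on rnh201-null replicate 3 alone. The rnh201-G42S and rnh201-null means differed by -2.86 points (exact p = 0.7, where 3 against 3 cannot go below 0.1), and by 0.89 with the opposite sign without rnh201-null replicate 1. None of the 6 comparisons of the share passed the adjusted threshold of 0.05. With so few libraries the smallest p-values that the exact tests allow leave little room to pass, so a missed threshold does not show that the genotypes were alike.

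No difference from WT passed the adjusted threshold. The WT mean was 54.3 ± 10.2% (SD, n = 6), and the mutants differed from it by 6.93 points for rnh201-null (exact p = 0.333), 4.07 for rnh201-G42S (exact p = 0.548) and -3.43 for rnh203-K46W (exact p = 0.628). Depth and the WT spread moved together. With only the 4 WT libraries of at least 5000 reads, WT averaged 49.3 ± 3.72%, and rnh201-G42S exceeded it by 9.12 points (exact p = 0.0571, the smallest that 3 against 4 allow). rnh201-null replicates 2 and 3 then exceeded WT by 8.22 points (exact p = 0.133), and rnh203-K46W by 1.62, the opposite sign to the value over all libraries. Set A gave a difference of 13.4 for rnh201-null, 7.92 for rnh201-G42S and -0.48 for rnh203-K46W. Set B gave -3.18, -0.85 and -6.47 for the same mutants, with 1 library each of rnh201-null and rnh201-G42S. The WT libraries of set B were replicate 2, at 73.7% from 7 positions, and replicates 4 and 5, at 53.3% and 44.4%. The rnh201-null and rnh201-G42S libraries of set B, at 53.9% and 56.3%, lay above WT replicates 4 and 5 and below replicate 2. The negative signs for those mutants thus rest on WT replicate 2. Within series 200 rnh201-G42S exceeded WT by 9.62. Within series 100 rnh201-null exceeded WT by 0.50, with 10 and 7 positions in the WT libraries and 35 in rnh201-null replicate 1. As rnh203-K46W shares no series with WT, series and genotype cannot be told apart there.

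Both sides of the origins carried the excess. In rnh201-null replicates 2 and 3 the outward strand held 62.0% and 53.5% of the signal on the left, where it is the minus strand, and 60.2% and 54.3% on the right, where it is the plus strand. In the rnh201-G42S libraries it held 58.2%, 57.5% and 57.6% on the left and 64.7%, 55.0% and 57.2% on the right. In the deep rnh203-K46W libraries it held 51.7%, 50.6% and 49.6% on the left and 51.8%, 50.9% and 49.5% on the right. The plus strand was thus the lower one left of the origins and the higher one right of them in all 5 deep libraries of the rnh201 mutants. The same order held by a smaller margin in rnh203-K46W replicates 3 and 4, and not in replicate 5.

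In rnh201-G42S the outward share was highest from 1 to 3 kb of the origins. From 1 to 3 kb the outward strand held 74.6%, 70.8% and 65.0% of the signal in the 3 rnh201-G42S libraries, and 61.9% and 61.6% in rnh201-null replicates 2 and 3. The deep rnh203-K46W libraries had 52.4%, 54.1% and 56.6% there, each above an even split and below each rnh201-null and rnh201-G42S value. Within the first 1 kb the shares were 60.3%, 50.3% and 53.7% in rnh201-G42S, 65.5% and 55.9% in rnh201-null, and 44.8%, 49.2% and 32.6% in rnh203-K46W. From 7 to 10 kb rnh201-G42S was at 44.2%, 49.5% and 54.5%, while rnh201-null replicate 2 still held 59.7% and replicate 3 held 49.6%. In rnh203-K46W it was 53.9%, 48.8% and 49.6% from 7 to 10 kb. From 10 to 15 kb the share was 57.2%, 51.7% and 54.9% in rnh201-G42S, above its values from 7 to 10 kb in each library, 55.7% and 46.8% in rnh201-null, and 57.0%, 43.8% and 52.2% in rnh203-K46W. From 15 to 20 kb the 3 rnh201-G42S libraries had 44.6%, 48.5% and 47.4%, the rnh201-null libraries 51.0% and 48.1%, and the rnh203-K46W libraries 48.7%, 55.4% and 44.0%. The share was thus lower from 7 to 10 kb than from 1 to 3 kb in 7 of the 8 deep libraries, the exception being rnh203-K46W replicate 3, and the decline was not steady with distance. Some DNA between ARS605 and ARS606, and between ARS606 and ARS607, lies within 20 kb of both origins. Beyond 10 kb it was counted for each of them, with outward and origin-facing strands exchanged. The shares from 10 to 20 kb therefore partly depend on each other. The values by distance are descriptions of single libraries and were not tested.

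**Figure D2:**
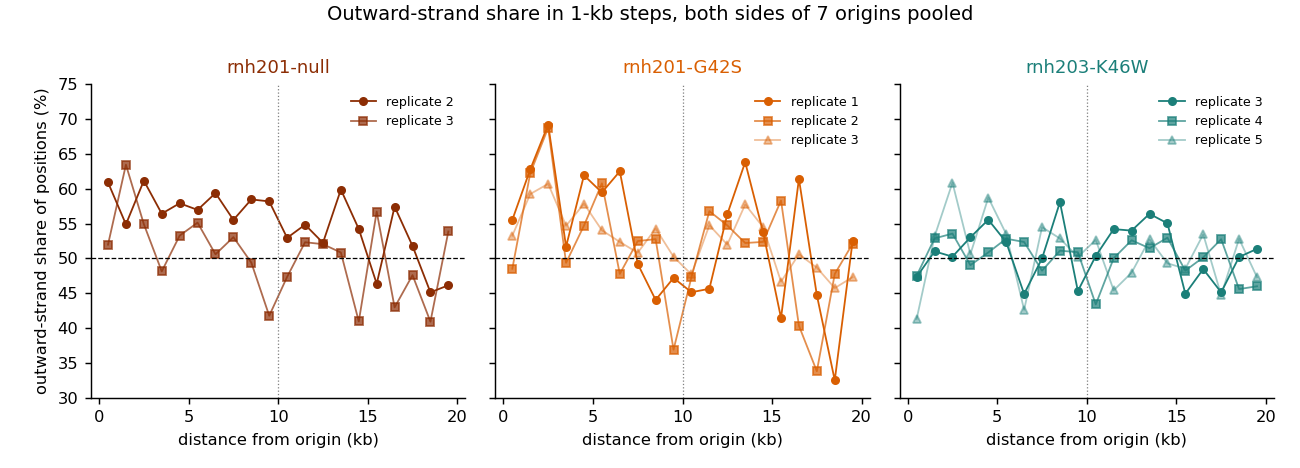
Outward-strand share of detected positions (%) in 1-kb steps of distance from the origin, both sides of the 7 origins pooled, in the 8 deep libraries. The dotted line marks 10 kb and the dashed line an even split; each line is a library. In rnh201-G42S the highest points lie between 1 and 3 kb, and in all panels the points beyond 15 kb scatter around or below the dashed line. Beyond 10 kb, some DNA between ARS605, ARS606 and ARS607 is counted for both neighbouring origins, with the strands exchanged.

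The strand balance differed between origins. ARS511 had the highest mean outward share of the 7 origins in the deep libraries of all 3 mutants, and also over the 6 WT libraries. There the outward strand held 60.0% and 72.3% of the signal in rnh201-null replicates 2 and 3, 73.1%, 72.9% and 66.2% in rnh201-G42S, and 50.6%, 60.4% and 53.9% in rnh203-K46W replicates 3, 4 and 5. The shallower rnh203-K46W replicates 1 and 2 had 66.4% and 71.3% there, and WT ranged from 54.1% to 100% (median 71.8%) on 1 to 54 positions a library. Apart from rnh201-null replicate 1, with 48.8% from 4 positions, every library was above an even split at ARS511, so the outward excess there was not limited to the rnh201 mutants. The mean enrichment factor per base on its left side was 0.88, 0.74 and 0.61 on the minus strand in the rnh201-G42S libraries, against 0.25, 0.29 and 0.28 on the plus strand. On its right side the order turned round, with 0.86, 0.75 and 0.64 on the plus strand and 0.39, 0.27 and 0.36 on the minus strand. The switch from minus to plus across this origin was present in all 3 rnh201-G42S libraries without overlap.

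ARS607 came next in rnh201-G42S, with 71.0%, 65.8% and 59.9% on the outward strand. It held 63.3% and 54.1% in the rnh201-null libraries and 54.3%, 50.2% and 55.6% in the rnh203-K46W libraries. At ARS508 the outward share was 53.5%, 62.8% and 58.0% in rnh201-G42S, 58.7% and 65.3% in rnh201-null, and 52.1%, 49.2% and 48.0% in rnh203-K46W, whose values were all below the other 5. At ARS1 it was 64.9%, 54.8% and 55.9% in rnh201-G42S, 60.2% and 54.0% in rnh201-null and 51.6%, 55.1% and 46.3% in rnh203-K46W. Those 4 origins were above an even split in every deep library of both rnh201 mutants.

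The other 3 origins were not. At ARS603 the share was 60.0%, 34.7% and 49.8% in rnh201-G42S, 60.7% and 35.3% in rnh201-null, and 51.4%, 42.2% and 43.9% in rnh203-K46W. At ARS605, which lies inside the meiotic gene MSH4, it was 37.7%, 44.9% and 54.3% in rnh201-G42S, 62.9% and 44.0% in rnh201-null, and 49.4%, 45.2% and 52.2% in rnh203-K46W. At ARS606 it was 55.5%, 47.9% and 56.6% in rnh201-G42S, 63.2% and 41.6% in rnh201-null, and 52.1%, 47.3% and 48.9% in rnh203-K46W. At all 3 of these origins libraries of the same rnh201 mutant fell on both sides of an even split. ARS605 also had the fewest positions of the 7 origins in each deep library, from 174 in rnh203-K46W replicate 3 to 2709 in rnh201-G42S replicate 3.

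**Figure D3:**
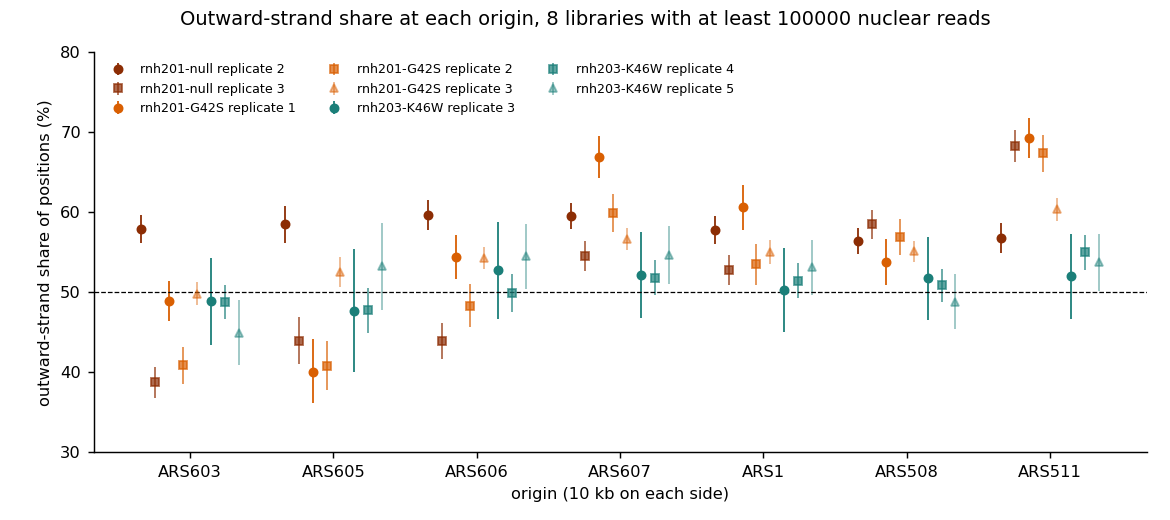
Outward-strand share of detected positions (%) at each of the 7 origins, 10 kb on both sides, in the 8 deep libraries, with exact 95% binomial intervals. The rnh201-null and rnh201-G42S points lie above the dashed even split at ARS607, ARS1, ARS508 and ARS511 and on both sides of it at ARS603, ARS605 and ARS606.

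The 14 flanks were then tested beside the rest of the genome. For each flank and each 10-kb window of the nuclear genome, the log2 ratio of plus to minus signal was fitted with limma over the 8 deep libraries, and the sign was turned so that a positive value means more on the outward strand. In rnh201-G42S, 4 of the 14 flanks differed from equal strands after adjustment over 1203 windows, against 29.4% of all windows. The share of flanks called was thus close to that of the genome, and the count says nothing particular about these origins. All 4 were outward. At ARS511 the log2 ratios were 1.28 ± 0.22 on the left (SE, limma adjusted p = 0.0045) and 1.05 ± 0.21 on the right (limma adjusted p = 0.0067). At ARS607 they were 0.65 ± 0.19 on the left (limma adjusted p = 0.028) and 1.01 ± 0.21 on the right (limma adjusted p = 0.0067). The left flank of ARS607 lost its call without rnh201-G42S replicate 1 or 2 (limma adjusted p = 0.091 and 0.095).

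The remaining flanks of rnh201-G42S did not pass. The values closest to passing were the right flank of ARS1 at 0.64, the left flank of ARS508 at 0.59 and the right flank of ARS606 at 0.46 (limma adjusted p = 0.063, 0.064 and 0.088). In rnh201-null 12 of 14 flanks had a positive log2 ratio, with a median of 0.38. That rests on replicate 2, since without it 9 flanks were positive with a median of 0.09, and without replicate 3 all 14 were, with a median of 0.61. In rnh201-null limma called 0 flanks and 0% of windows at an adjusted p under 0.05, and 5 flanks and 183 windows had an unadjusted p under 0.05. In rnh203-K46W 7 of 14 flanks were positive, with a median of -0.01, and limma called 0 flanks and 0% of windows, with 1 flank and 76 windows at an unadjusted p under 0.05. In rnh201-G42S 10 of 14 flanks were positive, with a median of 0.35. The median size of the log2 ratio, whatever its sign, was 0.38 over the flanks and 0.31 over all windows in rnh201-null, 0.37 and 0.44 in rnh201-G42S, and 0.07 and 0.17 in rnh203-K46W.

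Between genotypes limma called 0 flanks and 0% of windows in each of the 3 contrasts between mutants. At an unadjusted p under 0.05 it had 3 flanks and 309 windows for rnh203-K46W against rnh201-G42S, 2 flanks and 88 windows for rnh203-K46W against rnh201-null, and 0 flanks and 56 windows for rnh201-G42S against rnh201-null. The outward log2 ratio was lower in rnh203-K46W than in rnh201-G42S at 11 of 14 flanks, with a median difference of -0.36, which was -0.22 without rnh201-G42S replicate 1. It was lower than in rnh201-null at 13 of 14, with a median difference of -0.32. Without rnh201-null replicate 2 it was lower at 8 of 14 with a median of -0.06, and without replicate 3 at all 14 with a median of -0.64, so this difference depends on 1 library. These medians describe flanks that share libraries and are not independent. WT entered no such contrast, since none of its libraries reached the depth set for it.

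The pattern over the 14 flanks was shared by some libraries and not by others. Pearson correlations of the outward share of positions over the flanks were 0.82 to 0.86 among the 3 rnh201-G42S libraries. They were 0.74, 0.91 and 0.79 between rnh201-null replicate 3 and the rnh201-G42S libraries. The 2 deep rnh201-null libraries did not share a pattern, with a correlation of -0.08. Flanks of replicate 2 ranged from 50% to 62.3%, and those of replicate 3 from 34.5% to 68.8%. These 2 libraries also differ in set and series, and the part of either in this difference was not tested. Replicate 4 of rnh203-K46W correlated with the rnh201-G42S libraries at 0.67, 0.69 and 0.71, although its flanks ranged only from 41.2% to 56.9%. The correlations with them were lower for rnh203-K46W replicate 3 (0.38, 0.22 and 0.42) and replicate 5 (0.27, 0.29 and 0.37). Among these rnh203-K46W libraries the correlations were -0.03, 0.35 and 0.17, so they shared no clear pattern. Each correlation is over 14 flanks of the same 7 origins, which also share the DNA depth of a genotype, and is given as a description.

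Positions with more reads were more often on the outward strand in both rnh201 mutants. In rnh201-null replicate 2 the outward share was 55.7% of 15341 positions with 1 recovered read and 74.4% of 555 positions with 5 or more. In replicate 3 it was 50.9% and 60.7%. In the rnh201-G42S libraries it was 55.0%, 52.8% and 53.1% at positions with 1 read, and 67.6%, 63.7% and 67.7% at positions with 5 or more. In rnh203-K46W replicate 4 it was 51.1% of 11399 positions with 1 read and 50.5% of 394 with 5 or more, whose interval was 45.5% to 55.6%. In rnh203-K46W replicate 3 the share was 50.2% of 2063 positions with 1 read, 61.3% of 119 with 2 reads (interval 52.0% to 70.1%), 62.5% of 32 with 3 to 4 and 54.5% of 11 with 5 or more, the last 2 with intervals that include an even split. In replicate 5 it was 51.9% of 4370 positions with 1 read and 51.2% of 43 with 5 or more. Only replicate 4, the deepest of the 3, had enough positions with many reads for a narrow interval.

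**Figure D4:**
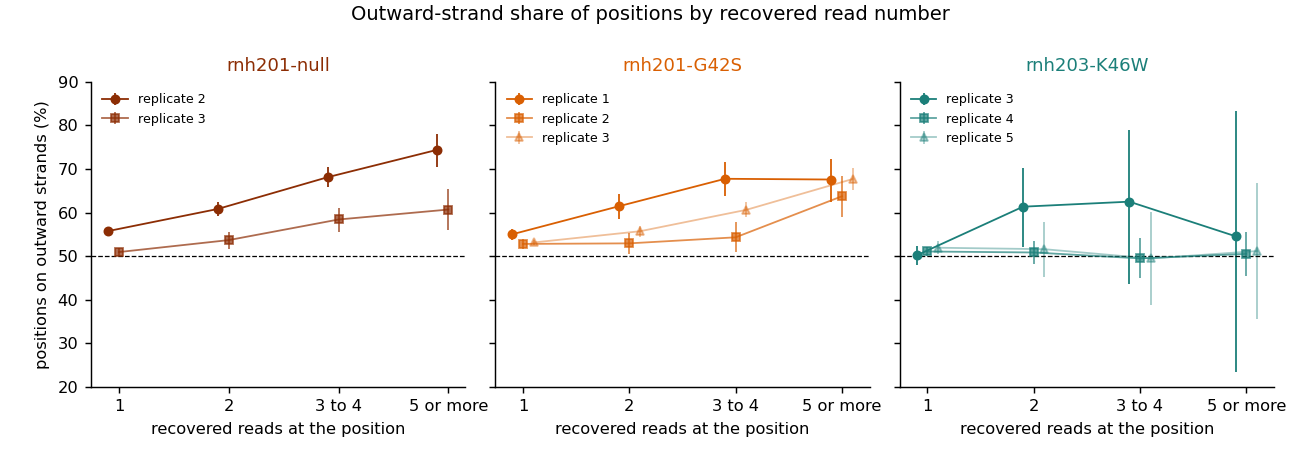
Share of positions on the outward strand (%) by the number of recovered reads at the position, within 10 kb of the 7 origins, in the 8 deep libraries, with exact 95% binomial intervals as bars. The lines climb to between 60.7% and 74.4% at 5 or more reads in rnh201-null and rnh201-G42S, and rnh203-K46W replicate 4 stays near the dashed even split.

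The total signal beside the origins, both strands together, was near the nuclear average in rnh201-G42S and below it in the deep rnh203-K46W libraries. The mean enrichment factor per base relative to the whole nuclear genome was 1.97, 1.17 and 0.98 in the rnh201-null libraries, 1.06, 0.93 and 1.0 in rnh201-G42S, 1.0, 0.90, 0.76, 0.84 and 0.77 in rnh203-K46W, and 0.69 to 1.13 (median 0.98) in WT. The highest value belongs to rnh201-null replicate 1 with its 35 positions. With each position counted once, the deep rnh203-K46W libraries were closer to the nuclear average, at 0.89, 0.97 and 0.93. rnh203-K46W differed by -0.14 from rnh201-G42S and by -0.52 from rnh201-null (exact p = 0.0714 and adjusted p = 0.214 for each), and rnh201-G42S differed from rnh201-null by -0.38 (exact p = 0.3). Without rnh201-null replicate 1 the difference between rnh203-K46W and rnh201-null was -0.22 (exact p = 0.19). Against WT, rnh201-null differed by 0.43 (exact p = 0.119), or by 0.13 without its replicate 1 (exact p = 0.357), rnh201-G42S by 0.05 (exact p = 0.714) and rnh203-K46W by -0.09 (exact p = 0.329). No comparison of the total signal passed after adjustment.

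Single positions with high values did not follow one strand. In rnh201-G42S the position with the highest mean among those with a value in all 3 libraries was on the origin-facing plus strand of chromosome V at 84686, 9314 bases left of ARS508, with enrichment factors of 258, 74.2 and 52.4. The next was on the outward plus strand of chromosome VI at 205011, right of ARS607, with 10.6, 349 and 5.04, where 51 reads of replicate 2 set the mean. The third was on the outward plus strand of chromosome IV at 466886, right of ARS1, with 223, 9.37 and 26.5. At those 2 positions on chromosomes VI and IV, 1 library held most of the signal.

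In rnh203-K46W all 3 named positions lay between 9 and 10 kb left of an origin on chromosome V. At 84641, on the origin-facing plus strand left of ARS508, the values were 1074, 1643, 0, 1105 and 20.7, with 166 reads in replicate 4. At 84027, on the outward minus strand of the same flank, they were 655, 3506, 0, 377 and 0. At 163973, on the outward minus strand left of ARS511, they were 818, 1459, 0, 1295 and 55.2, with 224 reads in replicate 4. All 3 had values in the 3 libraries of set A, replicates 1, 2 and 4, and were at 0 in replicate 3 of set B, while replicate 5 of set B had 1, 0 and 3 reads at them in that order. In rnh201-null the means of the 3 named positions were set by replicate 1, where 1 read was worth 8477 or 8578, and they held between 0 and 3 reads in the other 2 libraries. No WT position within the 14 flanks had a value in 3 libraries.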

How the data were processed

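Per the labels' protocols and the submitters' processing notes, the authors prepared ribose-seq libraries, trimmed reads with cutadapt and used the sacCer2 build. What the authors deposited is a ratio, called a normalized enrichment factor, for each strand of each position; how the authors normalized it is not given in the sources used here. Within a genotype each value equalled reads over DNA depth, a whole number, times a constant of the library, and read numbers were recovered on that basis. At least 99.7% of nuclear values in each library gave a whole depth. The deposited table's 8216036 rows were merged by position and strand into 6633594 positions, and 0 positions had more than 1 value in a library.

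Positions within 10 kb of the 7 origins were summed by side and strand. The outward share and the mean signal relative to the nuclear genome were compared over 17 libraries by two-sided exact permutation tests (scipy 1.17.1). The log2 ratio of plus to minus signal, with a pseudocount of 0.05, was fitted with limma 3.58.1 in R 4.3.3 over 1203 windows of 10 kb, flanks included, in libraries with at least 100000 nuclear reads, without covariates. On simulated libraries for rnh201-G42S against rnh201-null, 100% of 100 windows changed 2-fold and 88% of 100 changed 1.5-fold were recovered. There were 1203 windows, with 1 false call. The simulated libraries varied less than the real ones, where the SE of this contrast at the flanks ran from 0.26 to 0.51. These rates therefore do not apply to the real contrasts. Sets A and B came from correlations of mitochondrial profiles, whose mean Spearman rho was 0.64 over 66 pairs within sets and 0.24 over 70 pairs between them. The number of sets was fixed at 2. The same correlations defined the sets, so the higher rho within them is no separate evidence for the division. Named positions are, per genotype, the 3 with the highest mean value in the flanks among those with a value in at least 3 libraries, or 2 for rnh201-null. The origins, lists and tests were chosen with earlier results of these data known. Alternatives covered distance, depth, scaling, each origin, each library, set and series. The whole-genome sequencing samples were not analysed here.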

Additional observations from a re-analysis of the deposited data

Results flagged for a closer look

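The outward share of 73.7% in WT replicate 2 stood apart from the other 5 WT libraries by its gap relative to the range, and it rests on 7 positions. At single origins, rnh203-K46W replicate 2 stood apart from the other 4 rnh203-K46W libraries, with 0% of the signal on the outward strand at ARS606, from 7 positions, and 89.2% at ARS1, from 8 positions. The same library had an enrichment factor of 3506 at the position 9973 bp left of ARS508, from 2 reads, above the other 4 libraries. Some such gaps arise by chance when many groups are examined, and all 4 values come from libraries with 912 (WT) and 7290 (rnh203-K46W) recovered nuclear reads. Their causes were not tested.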

How the results depend on the processing

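The lower outward share of rnh203-K46W kept its direction under all 22 alternatives against rnh201-G42S and all 22 against rnh201-null, beside the omission of single libraries. Where an exact permutation test was possible, adjusted p ran from 0.214 to 0.429 and from 0.214 to 0.490, so neither passed. Within set B and within series 300 each rnh201 mutant had a single library, so only the direction was available. The share of rnh201-G42S minus rnh201-null turned positive with libraries of at least 100000 or 5000 reads (0.89), within set B (2.33), within series 300 (3.46), and in 2 settings chosen after seeing the data: at least 5000 reads with each position counted once (0.075) or within 5 kb (3.36). For rnh203-K46W minus WT it turned positive at 5000 reads (1.62) and with positions counted once there (2.31). Within set B the share was below WT for rnh201-null (-3.18) and rnh201-G42S (-0.85), where WT includes replicate 2 with its 7 positions. Total signal of rnh201-G42S fell below WT within 15 kb (-0.052), at 5000 reads (-0.054; -0.055 with positions counted once), within series 200 (-0.055) and without ARS508 (-0.0080); that of rnh201-null fell below WT with positions counted once at 5000 reads (-0.041), and rnh201-G42S minus rnh201-null was 0.021 within series 300.

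Omitting single libraries gave shares of 3.18 to 10.8 for rnh201-null minus WT, 2.08 to 7.94 for rnh201-G42S minus WT, -5.43 to 0.44 for rnh203-K46W minus WT (positive without WT replicate 2), -6.52 to 0.89 for rnh201-G42S minus rnh201-null, -14.0 to -6.61 for rnh203-K46W minus rnh201-null and -8.76 to -5.93 for rnh203-K46W minus rnh201-G42S. Total signal of rnh201-G42S minus WT ranged from -0.0015 (without WT replicate 2) to 0.088, and that of rnh201-null minus WT from 0.13 (without rnh201-null replicate 1) to 0.62.

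For strand balance by limma, windows called in rnh201-G42S numbered 239 to 511 over the alternatives and 189 to 353 when libraries were omitted (189 without replicate 1, 204 without replicate 2), while 4 to 6 flanks were called. In rnh203-K46W, 29 windows were called with array weights over 17 libraries, 1 with libraries of at least 30000 reads, 1 without windows of mean signal under 0.1, 1 with robust moderation, and 0 to 1 when libraries were omitted. For rnh203-K46W against rnh201-G42S these were 38 with weights, 51 with the filter, 45 with robust moderation, and 0 to 41 on omission, where 41 came without rnh201-G42S replicate 3. No flank was among any of them. The left flank of ARS607 missed the threshold with weights (limma adjusted p = 0.066). The causes of these changes were not tested. No paired analysis was possible because replicate numbers were given in accession order and the labels pair no libraries. WT could not enter the tests at 100000 reads or within series 300. It entered limma with array weights over 17 libraries, where 0 windows were called for each mutant against WT. At 30000 reads WT was 1 library, whose outward log2 ratio over the flanks had a median of 0.25 and a mean of -0.0024. The median difference from that library over the flanks was 0.32 for rnh201-null, 0.32 for rnh201-G42S and -0.16 for rnh203-K46W. Windows were called for each mutant against it. Their counts are not given, because 1 library does not measure the spread of WT. Depth limits WT most, with 7 to 473 positions a library.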
